A study of Mus musculus with 48 samples.

Results

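AMPA receptors are the glutamate-gated ion channels that carry most fast excitatory transmission between neurons of the hippocampus. The genes described here are the 4 pore-forming subunits, Gria1, Gria2, Gria3 and Gria4, and 6 auxiliary proteins that bind them: the transmembrane AMPA receptor regulatory proteins (TARPs) Cacng2, Cacng3 and Cacng8, the cornichon homologs Cnih2 and Cnih3, and Shisa9. The set was defined by gene names. All 10 were counted in every RNA library, among 47569 gene identifiers shared by the 2 kinds of RNA table.

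Pore subunits assemble as tetramers, and most receptors of hippocampal pyramidal cells contain GluA2, the product of Gria2. GluA2 is RNA-edited at its pore, which keeps receptors that contain it nearly impermeable to calcium, while receptors without it conduct calcium. TARPs bring the receptors to the membrane, hold them at the synapse and slow their closing. Cornichons accompany the receptor out of the endoplasmic reticulum and prolong the current, and Shisa9 (also called CKAMP44) alters recovery from desensitisation. TARP γ-8, encoded by Cacng8, is the abundant TARP of the hippocampus.

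The study compared adult C57BL/6J mice, 4 to 6 months old, with a conditional knockout of Setd1b (cKO) with control mice. SETD1B is a methyltransferase of histone H3 lysine 4, the residue whose trimethylation (H3K4me3) marks active gene starts and whose monomethylation (H3K4me1) marks enhancers and the flanks of starts. The hippocampal CA region gave 18 RNA libraries: 6 from neurons (3 cKO, 3 control) and 12 from whole CA tissue (6 cKO, 6 control). A further 30 chromatin libraries came from fixed neuronal nuclei sorted by flow cytometry: H3K4me3 (4 cKO, 4 control), H3K4me1 (4 and 4), H3K27ac (4 and 3) and H3K9ac (3 and 4). The last 2 marks are acetylations of active chromatin. The Cre driver, the exons deleted, the genotype of the controls beyond that name, and how the neuronal RNA was obtained are not given in the labels. They do not say whether replicates were separate animals, so a p-value measures the spread between these libraries only.

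Counted reads came to between 55.7 and 69.1 M (M, 1000000 reads) in each neuron RNA library and to between 14.9 and 20.1 M in each whole CA library. Setd1b itself did not check the labels: its counts covered the whole gene, and their mean was the higher one under the cKO label. It stood at 64.6 ± 6.16 CPM (normalised counts for each 1000000 counted reads; SD, n = 3) in cKO neurons and 54.5 ± 9.62 in control neurons, and at 59.4 ± 6.29 (SD, n = 6) and 39.6 ± 8.68 in whole CA tissue. The whole CA difference was called higher (log2 fold change 0.59, edgeR adjusted p = 0.00415), with libraries that overlapped, and was not called among replicates 1 to 3 alone. Groups are therefore the libraries labelled cKO and control throughout. Summed markers of astrocytes, microglia and endothelial cells were low in neuron RNA (astrocytes 25.4 to 32.1 CPM over the 6 libraries, against 1342 to 1727 in whole CA tissue). Oligodendrocyte markers, at 3841 to 5712 CPM in whole CA tissue, stood at 118 to 140 CPM in neuron RNA. General neuron markers were lower there too, at 3238 to 4046 CPM against 5995 to 7887. So were those of excitatory neurons (2390 to 3252 against 6006 to 7255) and interneurons (501 to 653 against 769 to 973). Dentate granule cell markers were higher in neuron RNA (165 to 242 against 71.3 to 144). No marker was at 0 in any library.

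The stretches of promoter shown next belong to 3 members on which the results turn: Gria2, which encodes the subunit that limits calcium entry, the TARP gene Cacng8 and the cornichon gene Cnih3. Each runs 5′ to 3′ along its gene from 250 bases before the annotated start to 50 bases after it, as given by RefSeq on GRCm38.p6. RefSeq's table held a start for 7 of the 10 members, and Gria1, Gria3 and Shisa9 were without one. Capitals mark matches to the motifs searched.
Gria2, chr3:80802786-80803085, minus strand: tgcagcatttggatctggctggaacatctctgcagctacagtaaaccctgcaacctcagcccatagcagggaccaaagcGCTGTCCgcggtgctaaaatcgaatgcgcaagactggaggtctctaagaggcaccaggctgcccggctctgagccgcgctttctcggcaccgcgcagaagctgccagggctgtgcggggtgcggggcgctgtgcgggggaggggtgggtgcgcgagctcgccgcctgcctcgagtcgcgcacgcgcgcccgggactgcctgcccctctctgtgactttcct
Cacng8, chr7:3393792-3394091, plus strand: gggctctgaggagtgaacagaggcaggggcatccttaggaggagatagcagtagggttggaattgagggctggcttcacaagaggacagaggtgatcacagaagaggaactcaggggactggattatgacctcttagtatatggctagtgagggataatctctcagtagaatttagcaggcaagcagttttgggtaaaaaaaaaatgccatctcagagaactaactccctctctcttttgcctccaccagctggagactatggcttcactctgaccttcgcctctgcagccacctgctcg
Cnih3, chr1:181352378-181352677, plus strand: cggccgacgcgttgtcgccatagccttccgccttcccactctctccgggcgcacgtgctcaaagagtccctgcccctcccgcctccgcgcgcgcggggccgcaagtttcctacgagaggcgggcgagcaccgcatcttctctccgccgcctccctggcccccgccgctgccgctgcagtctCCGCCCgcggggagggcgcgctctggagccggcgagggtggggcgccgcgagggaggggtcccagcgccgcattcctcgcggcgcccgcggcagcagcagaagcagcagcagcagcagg
The stretches at Gria2 and Cnih3 are rich in G, C and CpG, and that at Cacng8 is nearly free of CpG. GC content was 75.3% at Cnih3, 65.7% at Gria2 and 50% at Cacng8, against a median of 52.7% over 32817 promoters of the same length. The ratio of CpG observed to that expected from the bases was 0.99 at Cnih3, 0.80 at Gria2 and 0.11 at Cacng8, against a median of 0.38. The Gria2 stretch held GCTGTCC, the reverse complement of GGACAGC, 171 bases before the start; this is the right part of the RE1 element to which the repressor REST binds, and 6.56% of promoters held it on one strand or the other. Cnih3 held CCGCCC, the Sp1 box GGGCGG read on the other strand, 69 bases before its start, and Cnih2 held it 64, 38 and 26 bases before its own; 35.6% of promoters held that motif. Also searched on both strands were the cAMP response element TGACGTCA (in 1.79% of promoters) with its core TGACG (20.8%) and the palindromic NRF1 site (0.966%). The TATA box TATAAA (13.6%) and the left part of RE1, TTCAGCACC (0.372%), were searched too. None of these had an exact match in the promoters of the 7 members, and inexact matches were not searched. The Gria2 stretch, however, reads GCTGTCCgcggtgctaaa, and the left part of RE1 on the other strand is GGTGCTGAA. A near match to the left part thus lies beside the right part at Gria2, and REST binding there was not tested.

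The first comparison asked how the 10 genes differed between cKO and control in whole CA tissue, where each genotype had 6 libraries. Gria2 and Cacng8 fell and Cnih3 rose, so 3 of 10 members were called at an adjusted p under 0.05 by edgeR's quasi-likelihood test with Benjamini-Hochberg adjustment over all genes. Of the 15362 genes tested, 4.17% were called, 2.79% lower and 1.38% higher. An unadjusted p under 0.05 was held by 4 members that fell and 1 that rose, and by 15.7% of all genes. The median log2 fold change of the 10 members was -0.11, with 8 of them negative, beside a median of -0.003 over all genes. Whole tissue holds other cells too, and fewer cells of a type cannot be told apart from less RNA per cell.

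Among the pore subunits, only Gria2 was called. In control libraries Gria2 stood at 1128 CPM at the lowest, 1291 at the median and 1361 at the highest, and in cKO libraries at 818, 1029 and 1077. Every cKO library thus lay below every control library. Mean levels were 977 ± 111 CPM in cKO and 1275 ± 89.4 in control (SD, n = 6), a fall of 23.4% (log2 fold change -0.38, SE 0.07, edgeR adjusted p = 0.00272). The fall was also called inside each sequencing lane, at -0.32 among replicates 1 to 3 (adjusted p = 0.0272) and -0.46 among replicates 4 to 6 (adjusted p = 0.0359).

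The other pore subunits were not called, though edgeR gave Gria1 and Gria3 unadjusted p-values of 0.0158 and 0.0373. Gria1, the subunit long studied for its activity-dependent delivery to synapses, ranged from 1190 to 1427 CPM in cKO and from 1374 to 1499 in control libraries, groups that overlapped (log2 fold change -0.14, SE 0.05, edgeR adjusted p = 0.174). Gria3 ranged from 284 to 321 CPM in cKO and from 304 to 348 in control (-0.12, adjusted p = 0.276). Gria4, a subunit prominent in interneurons, had means of 82.5 ± 9.30 and 82.7 ± 3.07 CPM (-0.01, adjusted p = 0.984), and the sign of that difference turned to 0.01 when libraries were scaled by size only.

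Of the TARP genes, Cacng8 was called. Cacng8 stood at 81.2, 90.2 and 111 CPM (lowest, median, highest) in control and at 64.0, 72.1 and 85.9 CPM in cKO libraries. The 2 sets of values overlapped at their edges. The mean fell by 20.6%, from 91.6 ± 10.9 to 72.7 ± 7.86 CPM (log2 fold change -0.33, SE 0.08, edgeR adjusted p = 0.0220). This call was lost without cKO replicate 2, cKO replicate 5 or control replicate 6 (adjusted p up to 0.0531), and in each lane alone (-0.21, adjusted p = 0.373 among replicates 1 to 3; -0.45, adjusted p = 0.0653 among replicates 4 to 6). Cacng2, or stargazin, whose loss causes the stargazer phenotype of ataxia and seizures, differed by 0.01 (73.0 ± 1.94 CPM in cKO, 72.5 ± 3.98 in control). Cacng3 spread widely in the controls, from 44.1 to 67.0 CPM, around cKO values of 43.8 to 50.1 CPM (-0.16, edgeR adjusted p = 0.421).

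The 2 cornichon genes stood apart from each other. Cnih3 lay at 76.1, 85.3 and 93.9 CPM (lowest, median, highest) in control and at 106, 122 and 129 CPM in cKO libraries. No cKO library reached down to any control library. The mean rose by 41.0%, from 84.9 ± 5.79 to 120 ± 9.43 CPM (log2 fold change 0.50, SE 0.06, edgeR adjusted p = 6.05e-05), and the rise was called within each lane (0.42, adjusted p = 0.0143; 0.57, adjusted p = 0.00561). Cnih2, the cornichon best known in hippocampal pyramidal neurons, was not called, with means of 278 ± 20.9 CPM in cKO and 298 ± 30.3 in control and libraries that overlapped (-0.10, adjusted p = 0.550). Shisa9 ranged from 35.4 to 51.8 CPM in cKO and from 38.3 to 47.4 in control libraries (-0.07, adjusted p = 0.815).

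Markers of several cell types moved beside these genes in whole CA tissue, where 4.17% of all genes were called. Summed markers of CA2 and CA3 pyramidal cells ranged from 288 to 345 CPM in cKO and from 359 to 425 in control libraries, with 3 of 5 called lower. Microglial markers ranged from 209 to 225 CPM against 242 to 282 (1 of 5 called), and dentate granule cell markers from 71.3 to 133 against 106 to 144 (2 of 5 called). CA1 markers overlapped (887 to 936 against 842 to 949 CPM, 1 of 5 called), and so did those of excitatory neurons (6006 to 6913 against 6535 to 7255, 1 of 5 called) and astrocytes (1342 to 1488 against 1448 to 1727, 1 of 5 called). The part of these markers in the results for Gria2, Cacng8 and Cnih3 was not tested.

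**Figure D1:**
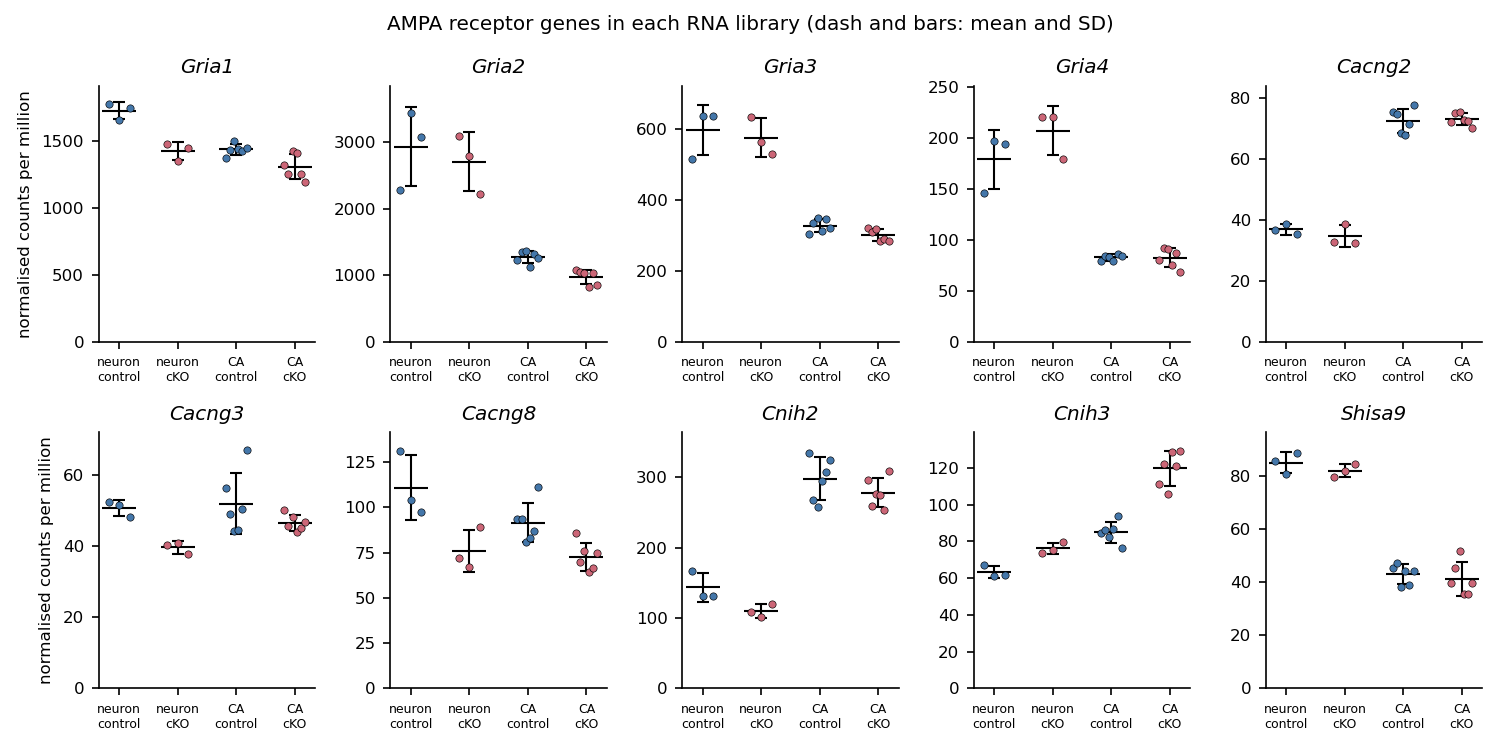
Normalised CPM (vertical axes, from 0) of each AMPA receptor gene in the 18 RNA libraries, by material and genotype. Points are libraries, the dash is the mean and bars are the SD. In whole CA tissue the 6 cKO values of Gria2 lie below the 6 control values and those of Cnih3 lie above them.

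The same comparison was made in neuron RNA with 3 libraries a genotype. None of the 10 members was called by edgeR (2.75% of 19622 genes were), 5 had an unadjusted p under 0.05 (17.2% of all genes did), and DESeq2 called 3: Cacng8, Cacng3 and Cnih2. Again 8 of 10 log2 fold changes were negative, with a median of -0.10 beside 0.02 over all genes.

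For 5 members the 3 cKO values did not overlap the 3 control values, which also held for 23.9% of all genes tested. Cacng8 stood at 72.1, 66.9 and 89.1 CPM in the cKO libraries, numbered 1 to 3, and at 131, 104 and 97.5 in the controls (log2 fold change -0.54, SE 0.14, 95% interval -0.85 to -0.23, edgeR adjusted p = 0.0791). The cKO values all lay below the control values, cKO replicate 3 nearest to them, and edgeR called the gene when that library was left out (adjusted p = 0.0283). DESeq2 gave Cacng8 an adjusted p of 0.00494 with all libraries. Cacng3 stood at 40.4, 40.9 and 37.6 CPM in cKO and at 52.4, 51.4 and 48.2 in control (-0.35, SE 0.08, edgeR adjusted p = 0.0535, DESeq2 adjusted p = 0.0125). Its 2 groups were separated by more than the spread inside either. Cnih2 stood at 109, 101 and 120 CPM in cKO and at 167, 131 and 132 in control (-0.38, SE 0.12, edgeR adjusted p = 0.136, DESeq2 adjusted p = 0.0462), with control replicate 1 well above the other two.

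Gria1 and Cnih3 were the other members without overlap. Gria1 stood at 1478, 1349 and 1450 CPM in cKO and at 1774, 1652 and 1748 in control neurons (log2 fold change -0.27, SE 0.10, edgeR adjusted p = 0.205). Cnih3 was the single one of the 5 that was higher in cKO, at 73.7, 75.1 and 79.5 CPM against 67.3, 61.3 and 61.8 (0.26, SE 0.08, edgeR adjusted p = 0.140).

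Gria2 values spread widely within each genotype in neuron RNA. It stood at 3104, 2794 and 2228 CPM in cKO and at 2281, 3448 and 3074 in control (log2 fold change -0.12, 95% interval -0.51 to 0.28, edgeR adjusted p = 0.771). Control replicate 1 and cKO replicate 3 were the low values, and the same 2 libraries were the low ones of their groups for Gria3 (516 and 530 CPM, others 565 to 639) and Gria4 (146 and 179, others 194 to 221). Gria3 differed by -0.05 (adjusted p = 0.855) and Gria4 by 0.21 (adjusted p = 0.457). Cacng2 (34.6 ± 3.63 against 36.8 ± 1.67 CPM, -0.09) and Shisa9 (82.0 ± 2.32 against 85.0 ± 4.02 CPM, -0.05) overlapped.

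In neuron RNA, where 2.75% of all genes were called, marker sums moved beside the members as well. CA1 markers ranged from 676 to 735 CPM in cKO and from 781 to 825 in control libraries (1 of 5 called), CA2 and CA3 markers from 189 to 191 against 215 to 233 (2 of 5 called) and dentate markers from 165 to 208 against 218 to 242 (2 of 5 called). Excitatory neuron markers ranged from 2390 to 2761 against 2717 to 3252 CPM (1 of 5 called). A sum can rest on few genes. The CA1 markers, for example, had a median log2 fold change of -0.08 and a lowest of -1.11. The part of these marker sums in the lower values of Cacng8, Cacng3, Cnih2 and Gria1 was not tested.

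**Figure D2:**
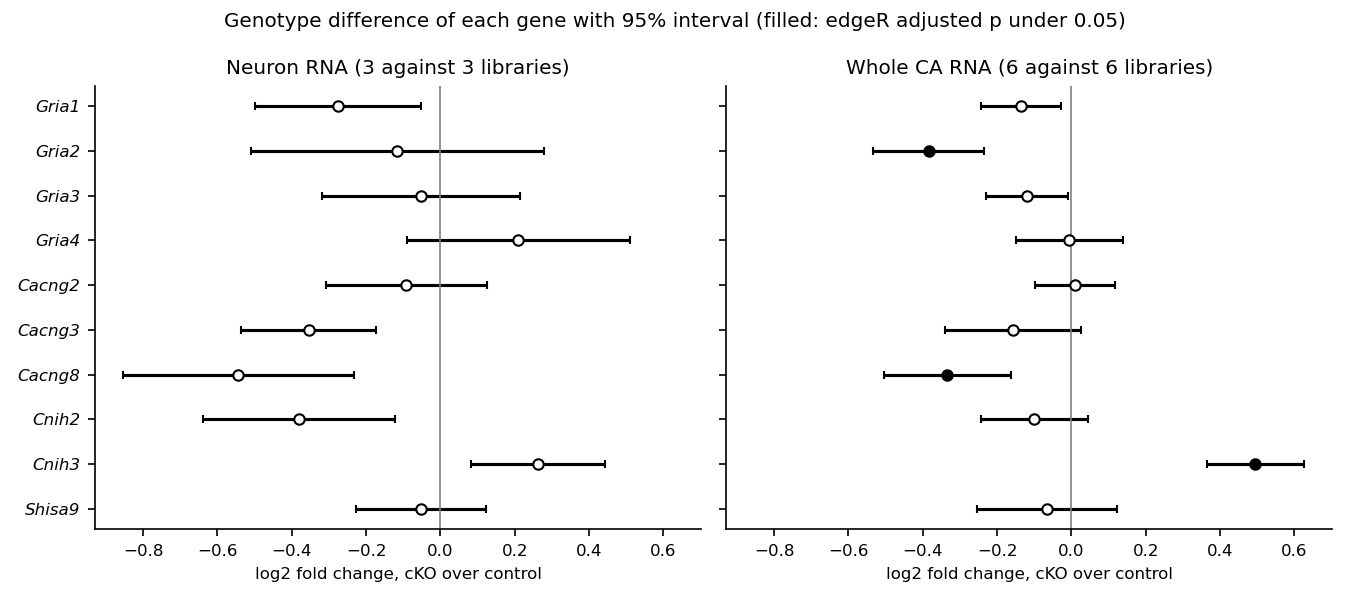
Log2 fold change, cKO over control, of the 10 members (horizontal axis) in neuron RNA (left) and whole CA RNA (right), with 95% intervals from edgeR. Filled points have an adjusted p under 0.05: Gria2 at -0.38, Cacng8 at -0.33 and Cnih3 at 0.50 in whole CA RNA, and none in neuron RNA.

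An interaction term tested whether cKO and control differed by unequal amounts in neurons and in tissue. No member was called in that term by edgeR (0.16% of 17523 genes were) or by DESeq2, and 2 had an unadjusted p under 0.05 (8.11% of all genes did): Cnih3, with a neuron minus whole CA difference of -0.23, and Cnih2, with -0.28 (edgeR adjusted p = 0.607 and 0.612). For Gria2, called in tissue and not in neurons, the difference was 0.28 with a 95% interval of -0.05 to 0.61 (edgeR adjusted p = 0.643). The effect on Gria2 is therefore not shown to differ between neurons and tissue.

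The balance among the pore subunits can be read without library scaling, as the share that each gene takes of the counts of Gria1 to Gria4. Shares are compared between libraries, not between genes, which differ in length. In whole CA tissue the Gria2 share was 40.8% ± 1.47 in control and 36.5% ± 2.79 in cKO libraries (SD, n = 6). Control shares of Gria2 ran from 38.1% to 42.2% and cKO shares from 31.7% to 38.9%, with a small overlap. The Gria1 share was 46.1% ± 1.49 in control and 49.1% ± 2.99 in cKO. On the log2 scale Gria2 over Gria1 was -0.17 ± 0.10 in control and -0.43 ± 0.20 in cKO libraries, the lowest being -0.78.

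Gria3 and Gria4 took larger shares in cKO libraries of both materials. The shares of a library sum to 100%, so a share can grow without more counts of its gene, and neither gene was called in CPM (log2 fold change -0.12 for Gria3 and -0.01 for Gria4 in whole CA, and -0.05 and 0.21 in neurons). Gria3 took 10.5% ± 0.255 of the counts in control and 11.3% ± 0.331 in cKO tissue, and 11% ± 0.271 and 11.7% ± 0.312 in control and cKO neurons (n = 3). Gria4 took 2.65% ± 0.0721 in control and 3.08% ± 0.231 in cKO tissue, and 3.28% ± 0.174 and 4.21% ± 0.231 in neurons. For both genes the share of every cKO library exceeded every control library of its material, though the margin for Gria3 was narrow, with a highest control share of 10.90% and a lowest cKO share of 10.97% in tissue. No test was made of these shares, because they are scores over chosen members. Wilson 95% intervals reached at most 0.483 percentage points to either side for Gria1, 0.473 for Gria2, 0.309 for Gria3 and 0.176 for Gria4, for counting error only. In neurons the Gria2 share was 53.6% ± 4.91 in control and 54.9% ± 3.52 in cKO, a difference smaller than the spread.

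**Figure D3:**
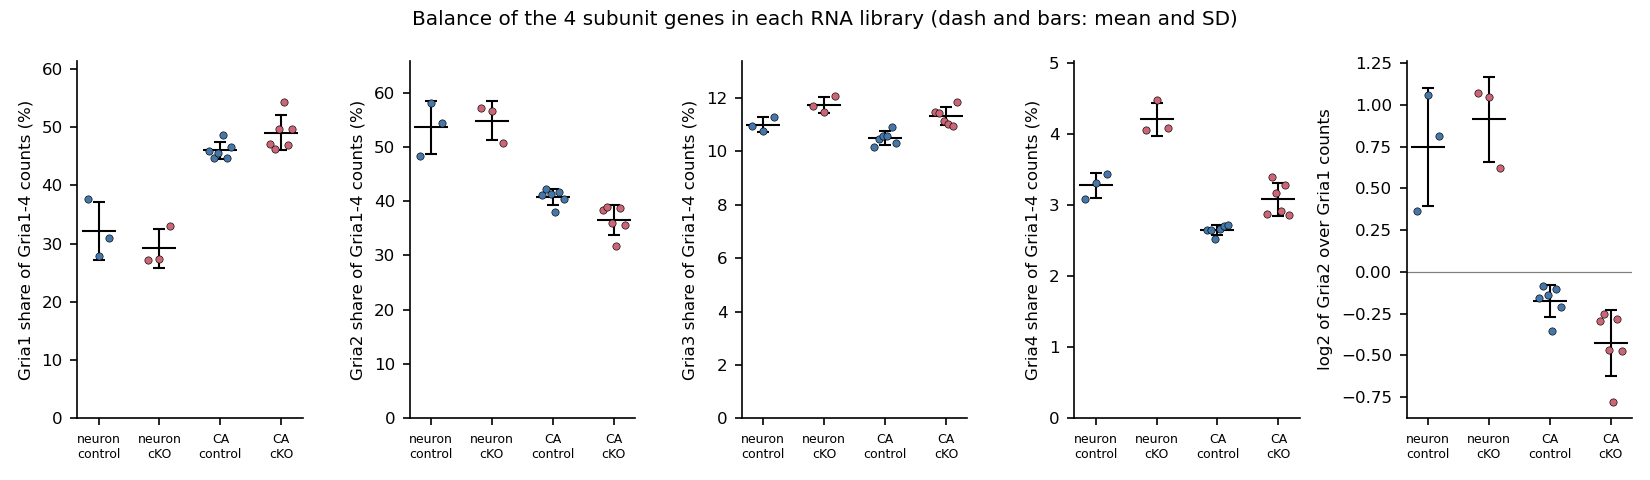
Share of the summed Gria1 to Gria4 counts taken by each gene (percent, from 0) and log2 of Gria2 over Gria1 counts, in each RNA library. Points are libraries and bars are mean and SD. In whole CA tissue the mean Gria2 share is 40.8% in control and 36.5% in cKO, and the Gria4 shares of cKO lie above those of control in both materials.

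Control neurons were also set against control whole CA tissue. In that fit 7 of 10 members were called, where 83.6% of 16859 genes were (40.1% lower, 43.6% higher in neurons), so a call says little about the members. Pore subunits and Shisa9 were higher in neuron RNA: Gria2 by 1.04 on the log2 scale, Gria4 by 0.95, Shisa9 by 0.82 and Gria3 by 0.71. Cnih2 (-1.21), Cacng2 (-1.14) and Cnih3 (-0.58) were lower. Gria1 (0.10), Cacng8 (0.12) and Cacng3 (-0.20) were not called. With scaling by library size only, 9 of 10 were called and the median of all genes moved from 0.07 to 0.23. Material, preparation and sequencing run cannot be told apart in this comparison.

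Other genes of the receptor complex were taken from 2 lists. Of 21 other complex genes (further TARPs, Shisa proteins, assembly factors and secreted partners), 20 were tested in whole CA tissue, where 3 fell, 1 rose and the median was -0.07. Over all genes tested in that tissue, 2.79% were called lower and 1.38% higher. Cacng7, the gene of TARP γ-7, rose from 122 ± 18.1 to 189 ± 19.1 CPM (log2 fold change 0.64, SE 0.09, edgeR adjusted p = 0.00019), with every cKO library above every control library. Cacng5, for TARP γ-5, fell from 16.6 ± 0.966 to 11.5 ± 1.90 CPM (-0.53, adjusted p = 0.00332). Shisa6, whose product retains receptors at the synapse, fell from 291 ± 13.3 to 227 ± 29.3 CPM (-0.36, adjusted p = 0.00542), and Nrn1, for neuritin, from 231 ± 4.65 to 184 ± 18.3 CPM (-0.32, adjusted p = 0.00263). These 4 calls held without any single library, but within lanes those of Cacng7 (adjusted p = 0.0573) and Cacng5 were lost among replicates 4 to 6, and those of Shisa6 and Nrn1 among replicates 1 to 3.

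In neuron RNA, where 2.75% of all genes were called, all 21 complex genes were tested. Among them 2 fell and none rose, with a median of -0.12. They were Nrn1, from 119 ± 6.54 to 86.6 ± 4.11 CPM (log2 fold change -0.46, SE 0.08, edgeR adjusted p = 0.0199), and Syndig1, a synaptic partner of the receptor, from 18.1 ± 1.08 to 13.3 ± 0.950 CPM (-0.45, SE 0.10, adjusted p = 0.0427). Each of these 2 calls was lost in 5 of the 6 fits without 1 library. Cacng7 was higher in cKO neurons too, at 87.2 ± 5.17 against 73.3 ± 7.51 CPM, without being called (0.25, adjusted p = 0.228).

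The second list held 20 genes of receptor anchoring, trafficking, clustering and editing. In neurons, where 2.75% of all genes were called, 1 fell and the median was -0.10. That gene was Nptx2, a pentraxin secreted in response to activity that clusters AMPA receptors, which fell from 33.3 ± 4.01 to 15.5 ± 1.97 CPM (log2 fold change -1.11, SE 0.12, edgeR adjusted p = 0.00134). In whole CA tissue Nptx2 stood at 35.7 ± 3.24 in cKO and 39.3 ± 4.24 CPM in control (-0.14, adjusted p = 0.445). The difference between those 2 effects was itself called, at -0.96 (SE 0.14, adjusted p = 0.00131). In tissue Pick1, for a protein that binds GluA2 and draws it from the surface, rose by 0.27 on the log2 scale (edgeR adjusted p = 0.0346), and Adarb1, the enzyme that edits the GluA2 pore site, fell by 0.19 on the log2 scale (adjusted p = 0.0324). These 2 calls were each lost in 8 of 12 fits without 1 library. The median of the 20 genes in tissue was -0.004, and 4.17% of all genes were called there.

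Cacng8 lies between 2 other genes of its family on chromosome 7. On GRCm38.p6, Cacng7 spans 3332027 to 3368221, Cacng8 3394042 to 3416266 and Cacng6 3423588 to 3435667. Gaps of 25820 and 7321 bp separate them in that order. In whole CA tissue Cacng7 rose while Cacng8 fell, although the Cacng8 call was lost without 1 of 3 libraries and in each lane alone.

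Genes that followed Gria2 across the 18 libraries were ranked by Pearson's r of log2 CPM after centring on each material, over 12193 genes. The 4 highest were Gpm6b (0.95), Cbfb (0.94), A330008L17Rik (0.92) and Frrs1l (0.91). Gria3 ranked 17 (0.89), and Cnih3 stood near the other end at rank 12135 (-0.78). With genotype means removed as well, Gria2 still ran with Gria3 (0.89) and Gria4 (0.88) and against Cnih2 (-0.62), while Cacng8 ran with Cnih2 (0.75) and Cacng3 (0.62). These values are a description of libraries that share their preparation, among them the neuron libraries of control replicate 1 and cKO replicate 3 that were low for Gria2, Gria3 and Gria4 alike.

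The chromatin libraries asked how the marks at the members differed in sorted neuronal nuclei. Each library was summarised as the length covered by the authors' peaks within 5 kb of the gene start, in a window of 10001 bp, and log2 of that length plus 100 bp was tested with limma. Peaks were called against 1 input per genotype, so a difference between the inputs and between the genotypes cannot be told apart.

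H3K4me3 was shorter in cKO at 6 of the 7 members with a start, and at each of the 6 every cKO library lay below every control library. Over all 19721 windows tested, 28.8% were called, 27.4% as shorter, and in 30.6% every cKO library lay below every control library. The median log2 difference was -0.31 for the 7 members and -0.09 over all windows. In control nuclei these genes had long domains: the median window held 2148 bp, and the members lay between the 83.4 percentile (Gria4) and the 99.9 percentile (Cacng8) of windows. No value given here over all windows, spans or bases was matched to the members for domain length.

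Cacng8 had the longest H3K4me3 cover of the 7. Its control libraries held 9754, 9516, 9605 and 9590 bp, nearly the whole window, and its cKO libraries 3732, 5382, 4583 and 4582 bp (log2 difference -1.07, SE 0.10, limma adjusted p = 0.000251). All 4 control libraries had a peak over the annotated start and no cKO library did. Cover downstream of that start went from 4616 to 392 bp on average, while 4178 of 5000 bp upstream of it stayed under peaks in cKO. Whether hippocampal neurons begin transcription at this CpG-poor annotated start was not tested.

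Cacng3 and Cnih3 lost cover on their gene bodies and kept it upstream. Cacng3 held 5353, 5467, 5753 and 5481 bp in control and 2993, 3071, 3164 and 3157 bp in cKO libraries (-0.81, SE 0.04, limma adjusted p = 2.32e-05), with 4170 bp downstream of the start becoming 1805 and 1344 bp upstream becoming 1292. Cnih3 held 5110, 5285, 5526 and 5166 bp in control and 2786, 3189, 2975 and 3006 bp in cKO (-0.80, SE 0.05, adjusted p = 5.62e-05), with 4679 bp downstream becoming 2339 and 593 bp upstream becoming 650. H3K4me3 at Cnih3 thus shortened in the neuronal nuclei while Cnih3 RNA rose in whole CA tissue. Within 2 kb of the start the Cnih3 difference was 0.03, so its loss lay farther into the gene.

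Gria2 held 6055, 6003, 6081 and 6003 bp in control and 4492, 4718, 5425 and 4788 bp in cKO libraries (log2 difference -0.31, SE 0.06, limma adjusted p = 0.00586). The window truncated this change, since the 5 kb after the start were full in the controls. Within 15 kb the cover into the gene was 11779 bp in control and 4315 bp in cKO libraries. The domain thus reached far into the gene in controls and ended within about 5 kb of the start in cKO.

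Smaller changes were measured at Cnih2 and Cacng2. Cnih2 held 6068 to 6466 bp in control and 5179 to 5575 bp in cKO (-0.20, SE 0.04, limma adjusted p = 0.00701). Cacng2 held 5894 to 6482 bp in control and 5297 to 5621 bp in cKO (-0.18, SE 0.05, adjusted p = 0.0209), a call lost without cKO replicate 3, control replicate 2 or control replicate 4 and within 2 kb of the start. The start of A730060N03Rik lies within 5 kb of that of Cacng2, so their peaks share a window. Gria4 was the member not called, with 3394 to 3884 bp in cKO and 3659 to 3782 bp in control libraries (-0.02, adjusted p = 0.782). The start of Gm46100 lies within 5 kb of that of Gria4, so this window is shared too.

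H3K4me3 libraries ran on different lanes (replicates 1 to 3 on one, replicate 4 on another), with both genotypes in each. Since the groups do not overlap at the 6 genes called, the cKO libraries were also the lower ones within each lane.

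**Figure D4:**
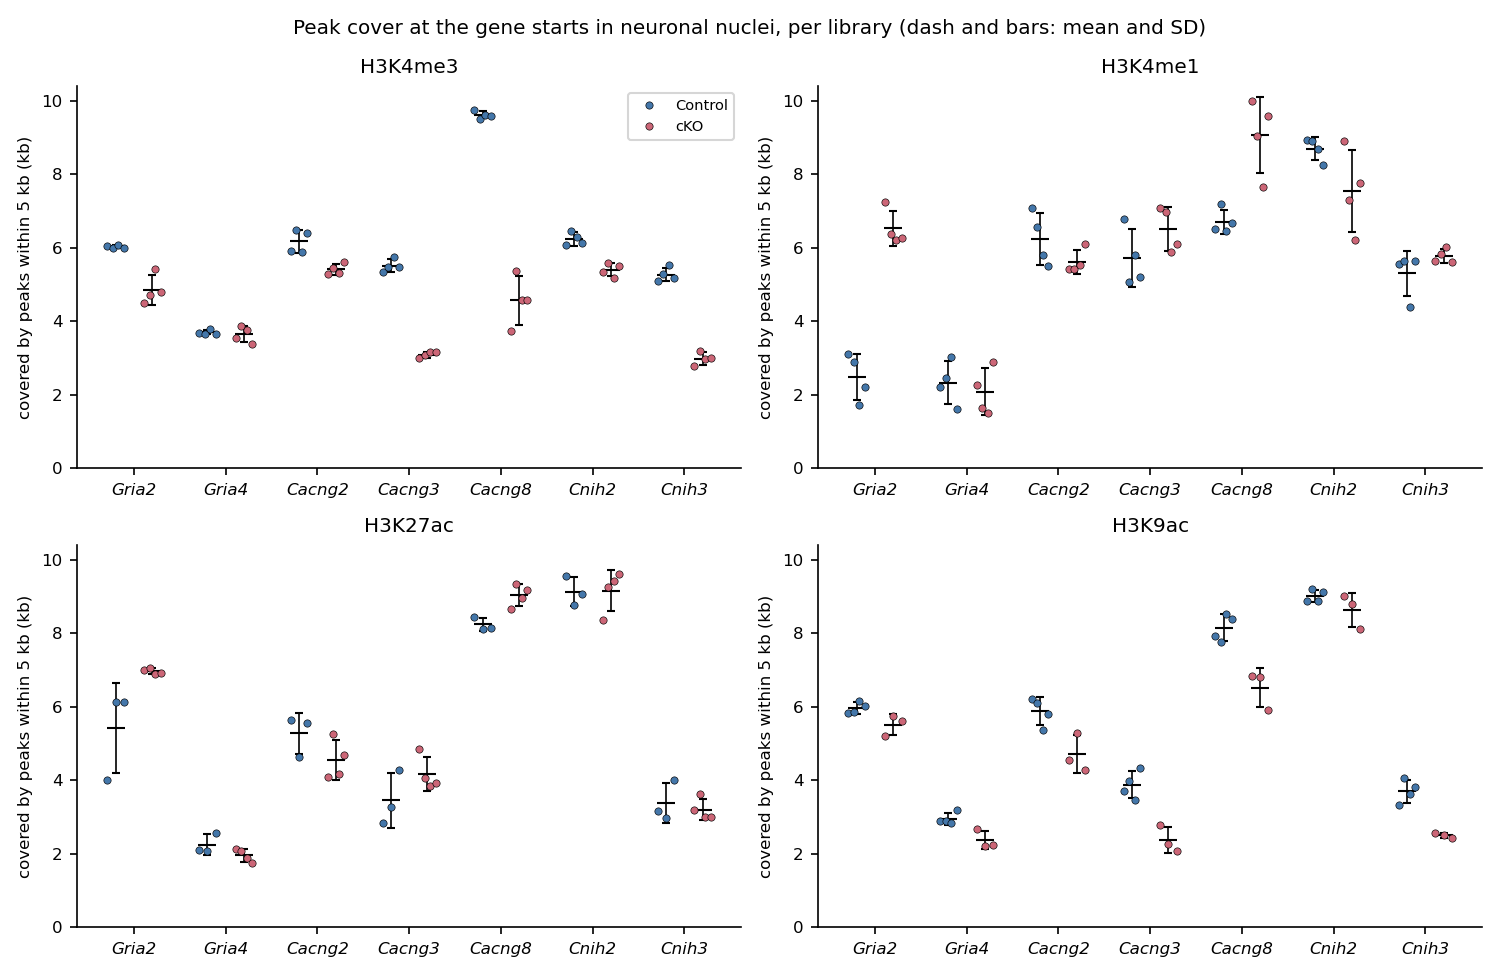
Length covered by peaks within 5 kb of the gene start (kb, vertical axes from 0) for 4 histone marks at the 7 members with a start, one point per library, with mean and SD. For H3K4me3 the cKO points lie below the control points at every gene but Gria4, and for H3K4me1 the cKO points of Gria2 lie above.

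Whole gene spans with 5 kb on either side, a setting added after the data were seen, brought in the 3 members without a start. On it 8 of 10 members were shorter in H3K4me3, against 25.6% of 16404 spans called in either direction. Gria1 (chromosome 11, 57011571 to 57330244) went from 16968 ± 1662 to 7082 ± 1726 bp (log2 difference -1.28, SE 0.18, limma adjusted p = 0.00157). Gria2 (chromosome 3, 80681450 to 80804227) went from 13110 ± 609 to 5019 ± 312 bp (-1.37, SE 0.06, adjusted p = 1.87e-05). Gria3 (chromosome X, 41400819 to 41678601) went from 6735 ± 286 to 3751 ± 392 bp, and Shisa9 (chromosome 16, 11983593 to 12270904) from 7443 ± 262 to 4672 ± 500.2 bp. In each of these 4 genes the highest cKO library lay below the lowest control library, as in 28.2% of the 16404 spans tested. Cacng2 (-0.10, adjusted p = 0.136) and Gria4 (0.11, adjusted p = 0.321) were not called on this measure.

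Bases under a peak in all 4 control libraries and in no cKO library were then counted over the spans, as a description. Gria2 had 5241 such bases, 46.6% of those covered in every control library. Gria3 had 1997 (34.0%), Cacng8 3623 (32.5%), Cacng3 1715 (32.4%), Gria1 3728 (31.1%), Cnih3 1605 (31.1%) and Shisa9 1571 (25.2%). Cacng2 had 314 (4.6%), Cnih2 215 (2.9%) and Gria4 none. Over all chromosomes measured, within genes or not, 2599652 of the 40038542 bases covered in every control library were under no peak in any cKO library (6.5%).

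**Figure D5:**
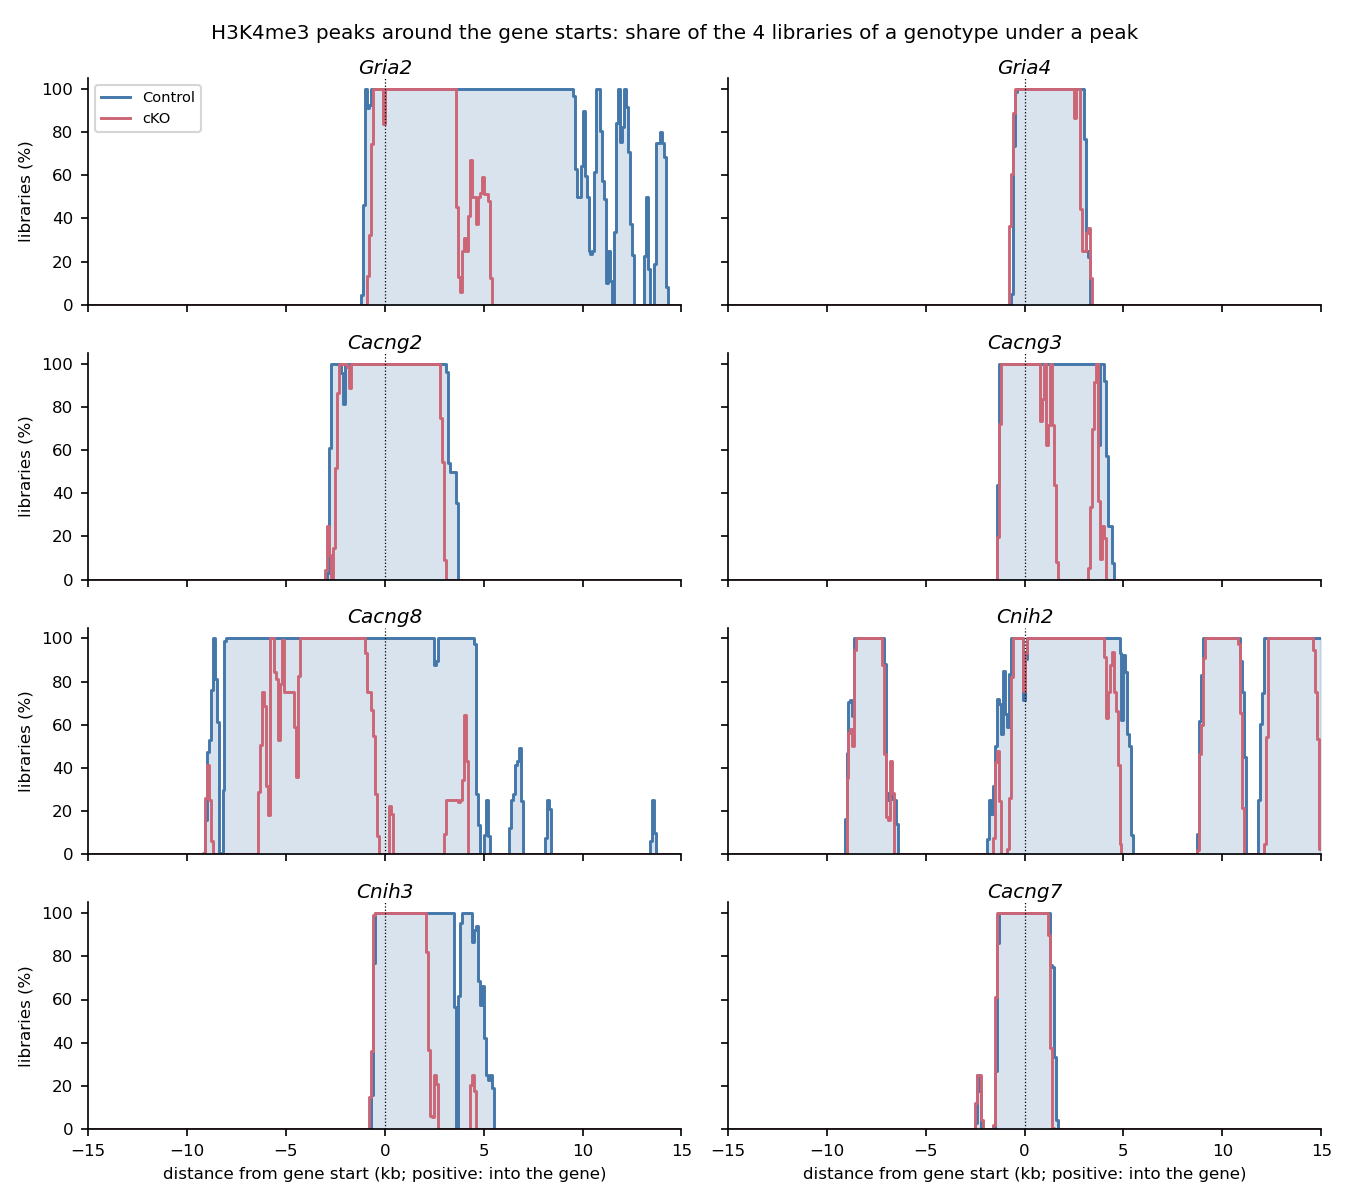
Share of the 4 libraries of a genotype with an H3K4me3 peak (percent) against distance from the gene start (kb, positive into the gene) at the 7 members and Cacng7. Control domains of Gria2, Cacng3 and Cnih3 run farther into the gene than cKO domains, and at Cacng8 no cKO library has a peak over the start.

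The gene Cacng7, looked at after its RNA values were seen, held 2857 ± 133 bp of H3K4me3 in cKO and 2947 ± 199.95 bp in control libraries (log2 difference -0.04, limma adjusted p = 0.648).

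H3K4me1 was longer in cKO at 1 of the 7 members, Gria2, where 6.85% of 24908 windows were called and 1.45% as longer. Gria2 held 3103, 2899, 1727 and 2213 bp in control and 7245, 6377, 6213 and 6268 bp in cKO libraries (log2 difference 1.39, SE 0.18, limma adjusted p = 0.00674). Every cKO library exceeded every control library. In the 5 kb downstream of the start, mean H3K4me1 cover went from 828 bp in control to 4196 bp in cKO. H3K4me3 cover there went from 5001 to 4152 bp, so most of that stretch kept H3K4me3. At Cacng8 the cKO libraries were also all above the controls, at 9070 ± 1023 against 6708 ± 329 bp, without a call (0.42, adjusted p = 0.0546). On the bases that had lost H3K4me3, H3K4me1 peaks covered 78.9% at Gria2 in control and 91.8% in cKO. They covered 90.2% and 100% at Cnih3, where control replicate 3 alone was below full cover (60.7%). At Cacng3 they covered 100% and 70.3% (33.9% to 100% among cKO libraries), at Cacng8 100% and 97.2%, and at Gria3 63.6% and 66.8%. At Gria1, Shisa9, Cacng2 and Cnih2 they covered 100% in both genotypes, and over all such bases of the genome 89.2% and 80.4%. On bases of the genome under H3K4me3 peaks in every library of both genotypes, H3K4me1 peaks covered 66.1% in control and 75.5% in cKO. The Gria2 call was lost over the whole gene span, where the difference was -0.06 and 6.86% of spans were called.

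H3K9ac was shorter in cKO at 1 member, Cnih3, where 1.69% of 20319 windows were called, 1.31% as shorter. Cnih3 held 2501 ± 62.3 bp in cKO (n = 3) and 3705 ± 311 bp in control libraries (n = 4; log2 difference -0.55, SE 0.09, limma adjusted p = 0.0411), a call lost in 6 of 7 fits without 1 library. Cacng3 was next, at 2379 ± 358 against 3880 ± 366 bp (-0.69, adjusted p = 0.0544). All 7 differences were negative, with a median of -0.32 beside -0.07 over all windows, of which 62.3% were negative. The bases that had lost H3K4me3 were under H3K9ac peaks less in cKO than in control: 54.9% in control and 12.8% in cKO at Gria2, 47.4% and 0% at Cnih3, 36.7% and 2.0% at Cacng3, 16.4% and 0% at Gria3 and 82.6% and 19.0% at Shisa9. At Cacng2 the cover was 49.9% and 12.2%. Cover there at Gria1 (93.4% and 82.3%), Cacng8 (63.2% and 46.5%) and Cnih2 (100% and 91.0%) differed less. Over all such bases of the genome it was 54.9% and 25.5%.

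H3K27ac gave no call among the 7 members with limma (0.424% of 19790 windows were called), and 1 had an unadjusted p under 0.05. That member was Gria2, at 6978 ± 73.5 bp in cKO (n = 4) and 5421 ± 1229 bp in control libraries (n = 3), with no overlap (log2 difference 0.38, adjusted p = 0.332). Control replicate 1, whose deposited file is numbered 2, held 4002 bp against 6128 and 6134 bp in the other controls, and without it the difference was 0.18. Cnih2 (9156 ± 555 against 9131 ± 396 bp) and Cnih3 (3206 ± 295 against 3384 ± 553 bp) overlapped. On the bases that had lost H3K4me3, H3K27ac covered 34.5% in control and 55.8% in cKO at Gria2. There control replicate 1 was at 3.57% and control replicates 3 and 4 at 55.9% and 44.1%. The cKO libraries ran from 51.7% to 62.1%, so the genotypes overlapped. Cover was 65.4% in control and 84.5% in cKO at Cacng8, 91.9% and 94.0% at Gria1, and 30.5% and 19.9% at Cnih3. It was 17.5% and 19.0% at Cacng3, 1.97% and 4.09% at Gria3, and 63.4% and 23.6% at Shisa9. At Cacng2 it was 42.9% (1.27% to 100% among control libraries) and 7.56%, and at Cnih2 100% in both genotypes. Over the genome it was 44.5% and 34.2%.

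The first replicates of H3K4me1 and H3K9ac ran on a lane apart from the others, with both genotypes in each lane. At Gria2 for H3K4me1 and at Cnih3 for H3K9ac the genotypes did not overlap, so their order was the same within each lane.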

How the data were processed

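RNA was counted in 18 libraries of mouse hippocampal CA neurons or whole CA tissue, and 4 histone marks were profiled by ChIP-seq in 30 libraries of sorted neuronal nuclei. The authors deposited raw read counts per gene, and the aligner and counter are not given in the sources used here. Peaks were called with MACS (2.1.0.20140616, and 2.1.1.20160309 for H3K4me3) at a q cutoff of 0.1, with broad calling for H3K4me1, per the file headers. Each deposited peak carries a −log10 q value and a fold enrichment, and the deposited peak lengths are in bp. The submitters' processing notes name the build mm10 (GRCm38). The RNA kit does not mark strand, so overlapping antisense reads cannot be told apart.

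From the counts, edgeR 4.0.16 (R 4.3.3) tested each comparison after filterByExpr with TMM factors, apart for neuron and whole CA libraries except where the 2 were compared. Rows that name no gene held 0 reads. CPM values are TMM-normalised within a material. From merged peaks, limma 3.58.1 tested windows with a peak in at least 3 libraries. Benjamini-Hochberg adjustment ran over all genes or windows, at 0.05. RefSeq starts and promoters are on GRCm38.p6. Alternatives were DESeq2 1.42.0, library size scaling, no filter, lanes apart, a replicate block, leaving out each library, stricter peaks (−log10 q of at least 5), a 2 kb window, and windows with a peak in every library. The scripts were tested on simulated data.

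All 10 members are named with their values, as are genes of the 2 pathway lists that were called and the genes most like Gria2, by rank of correlation. Some items that these rules name are not reported here. The members and lists were chosen with earlier results of these data known. Levels were not compared between genes, because transcript lengths were not used here. ChIP libraries held 24.4 to 41.6 M tags. No pair of RNA libraries agreed within sampling noise.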

Additional observations from a re-analysis of the deposited data

Results flagged for a closer look

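Of 72 groups of 4 to 10 values, 3 (4.2%) held a library far from the rest of its group, where chance gives about 5%. In H3K4me1 at Cnih3, control replicate 3 held 4392 bp against 5554 to 5636 bp in the other control libraries. In H3K4me1 at Gria2, cKO replicate 1 held 7245 bp against 6213 to 6377 bp in the other cKO libraries, and it lay on the far side from the controls. In whole CA tissue, control replicate 3 had a Gria4 share of 2.517% against 2.643% to 2.717% in the other controls.

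The genotype effect on Nptx2, the pentraxin that clusters AMPA receptors, differed between neuron RNA and whole CA RNA by -0.96 on the log2 scale (edgeR adjusted p = 0.00131), the neuron effect being the more negative.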

How the results depend on the processing

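Calls on Gria2 and Cnih3 in whole CA RNA held under each alternative run, and so did those of Gria2, Cacng8, Cacng3 and Cnih2 in H3K4me3. Other outcomes depended on the setting, and the cause was not tested.

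In neuron RNA, DESeq2 called 840 genes and 3 members, and edgeR without a filter called 1 member. Without 1 library, 207 to 482 genes and 0 to 1 members were called, and Gria2 ran from -0.27 to 0.0143 and Gria3 from -0.15 to 0.0057. In whole CA RNA, 207 genes were called among replicates 1 to 3 and 224 among replicates 4 to 6. There Gria4 turned to 0.10 and Shisa9 to 0.0648 among replicates 1 to 3, Cacng2 to -0.0073 among replicates 4 to 6, and Gria4 to 0.0075 with scaling by library size. Without 1 library Cacng2 ran from -0.0045 to 0.0295 and Gria4 from -0.0397 to 0.0457. In the interaction 69 genes were called without a filter and 75 by DESeq2, with Shisa9 at -0.0014 without a filter. Without 1 library that count ran from 18 to 32, Gria3 from -0.0146 to 0.13 and Shisa9 from -0.0245 to 0.0936. In control neurons against control tissue, library size scaling called 9 members, no filter moved the median of all genes to 0.48, and Cacng8 ran from -0.0258 to 0.20 without 1 library.

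In H3K4me3, 2 kb windows gave 2669 calls, Gria4 at 0.057 and Cnih3 at 0.0301, and spans gave Gria4 at 0.11. Without 1 library Gria4 ran from -0.0519 to 0.0113. In H3K4me1, stricter peaks gave 390 calls and left 1 of the 7 members to test, Cnih2, at 4.46 and not called (0 members, Gria2 not tested), and 2 kb windows gave 441 calls, Gria4 at 0.49, Cacng2 at 0.20 and Cnih2 at 0.15. Windows with a peak in every library gave 2 members, and spans 0 members, Gria2 at -0.0618, Gria4 at 0.60 and Cacng8 at -0.13. Without 1 library, 1003 to 1588 windows and 1 to 2 members were called. In H3K27ac, windows with a peak in every library gave 13 calls and spans 54. Cnih2 moved to -0.12 with stricter peaks, -0.0011 at 2 kb and -0.0838 over spans, Cnih3 to 0.0006 at 2 kb and 0.27 over spans, and Gria4 to 0.45 over spans. Without 1 library 1 to 96 windows were called, Cnih2 ran from -0.0252 to 0.0456 and Cnih3 from -0.15 to 0.0575. In H3K9ac, 2 kb windows gave 99 calls, Gria2 at 0.11 and Cnih3 at 0.0284, and spans gave 28 calls, 0 members and Cnih3 at 0.46. Stricter peaks and windows with a peak in every library gave 2 members each. Without 1 library 5 to 322 windows and 0 to 1 members were called.

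Whether replicate numbers pair the samples was not settled. Same-numbered libraries of the 2 genotypes correlated at -0.06, 0.29 and -0.004 in neuron RNA and from -0.06 to 0.20 in whole CA RNA. Libraries with different numbers ran from -0.25 to 0.22 in neuron RNA and from -0.26 to 0.25 in whole CA RNA. These ranges overlap and cannot decide on pairing or a shared batch. With the replicate block, 327 genes were called in neuron RNA, 839 in whole CA RNA with 3 members, 164 windows and 0 members in H3K4me1 (Gria2 1.39, adjusted p = 0.0501), 0 windows in H3K27ac (Cnih2 -0.0027), and 0 windows and 0 members in H3K9ac.

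The whole CA libraries are shallower than the neuron libraries, and the neuron libraries are fewer. H3K27ac and H3K9ac each had 1 group of 3 libraries. Covered length follows the peak caller's threshold and is not a signal height. Comparing levels between genes by length was not run, for want of transcript lengths.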
